A study of Mus musculus with 120 samples.

Results

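The APRIL and BAFF axis, as described here, is a set of 8 genes: the ligand genes *Tnfsf13* (APRIL), *Tnfsf13b* (BAFF) and *Tnfsf12* (TWEAK), the readthrough gene *Tnfsfm13* (TWE-PRIL), and the receptor genes *Tnfrsf13b* (TACI), *Tnfrsf13c* (BAFF receptor), *Tnfrsf17* (BCMA) and *Tnfrsf12a* (Fn14). The members were selected by gene name from the 55487 named genes of the count tables, and all 8 were found in both tables. They were chosen with earlier results of these data in view, and which values led to the choice is not recorded, so no p-value below is independent of it.

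RNA was sequenced from 120 biopsies of immunological niches (INs), porous polycaprolactone scaffolds placed under the skin that fill with host tissue and immune cells and can be removed and replaced. Female NOD/ShiLtJ mice, an inbred strain that develops autoimmune diabetes, were divided into progressors (P, 58 libraries from 10 mice), which became hyperglycemic, and nonprogressors (NP, 39 libraries), which did not. NOR/LtJ mice (23 libraries from 5 mice) were the nondiabetic controls, a related strain with the same diabetogenic major histocompatibility haplotype. INs were implanted at 4 weeks of age in all groups. The libraries of NP and NOR mice were spaced by 4 weeks between the ages of 6 and 22 weeks (6 and 14 weeks in NP mice of batch 2), and those of P mice were from 6 weeks of age and then 7, 5, 3 and 1 weeks before onset and from onset. Of the 39 NP libraries, 33 came from 11 mice named in the labels, and 6 were labelled only by the days since implantation (31, 38 or 108) and entered no comparison. Libraries were sequenced in 2 batches on different instruments. All NOR libraries were in batch 1, and all 8 P libraries from 7 weeks before onset were in batch 2. Scaffolds removed at 6 weeks of age had been in place since 4 weeks of age. Removed scaffolds were then replaced weekly, in rotation over 4 sites. The labels do not give how long each later scaffold had been in place. The age of the mouse and the age of the graft therefore cannot be told apart.

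APRIL and BAFF are members of the tumor necrosis factor family that keep B cells and plasma cells alive, and both are made largely by myeloid and stromal cells. BAFF receptor, found on mature B cells, binds BAFF alone. TACI and BCMA bind both ligands, and BCMA marks plasma cells. TWEAK is encoded next to APRIL and signals through Fn14, a receptor induced on stromal and epithelial cells of injured tissue, and TWE-PRIL is a fusion of the membrane-anchoring part of TWEAK with the receptor-binding part of APRIL.

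In GRCm38, the build of the deposited tables, *Tnfsf13* lies on the minus strand at chr11:69682846-69685784 and *Tnfsf12* directly upstream of it at chr11:69686250-69695849, and *Tnfsfm13* spans both at chr11:69682577-69696098. Of the 2235 exonic bases of *Tnfsfm13*, 983 were shared with *Tnfsf13* and 731 with *Tnfsf12*, together 76.7%. Reads from the shared bases were divided between the genes by estimation. Exonic bases held by 1 of the 3 genes alone numbered 784 in *Tnfsf12*, 654 in *Tnfsf13* and 521 in *Tnfsfm13*. The 3 junctions below, all in coding sequence, are shown because the fusion joins the upstream exon of the first to the downstream exon of the last. Capitals mark the last bases of the upstream exon and lower case the first bases of the next exon, 5′ to 3′.
Tnfsf12: TACCTGTACTGTCAGgtgcactttgatgag
Tnfsfm13: TACCTGTACTGTCAGagtcctgatgtcctg
Tnfsf13: AGCCTCTGGGAGCAGagtcctgatgtcctg
The *Tnfsfm13* junction shown runs from the *Tnfsf12* exon that ends at base 69687252 of chromosome 11 to the *Tnfsf13* exon that starts at base 69684738. Another coding junction of *Tnfsfm13* alone, not shown, also crosses between the genes. It runs from base 69686957, within the span of *Tnfsf12*, to base 69685130, within that of *Tnfsf13*. *Tnfsfm13* held 15 annotated junctions, of which 4 belonged to it alone, whereas *Tnfsf13* held 1 of its own among 6 and *Tnfsf12* none of its own among 6, so that the *Tnfsf12* junction shown is also annotated in another gene of the locus. For this reason, values of the 3 genes are followed below by their sum. *Tnfsf13os*, an antisense gene, overlaps 221 exonic bases of *Tnfsf13*, and whether counting used the strand is not given in the sources used here.

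Total counts ranged from 4722396 to 56185434 in the 74 libraries of batch 1 and from 29029239 to 43880986 in the 46 libraries of batch 2. In 1 NOR library (mouse 5, 18 weeks), 85.7% of counts fell on the most abundant gene, a ribosomal RNA gene, and *Tnfsf13* had 3 counts. Values without it are given where they change a call or a ratio. In the 4 NP libraries of 22 weeks, the most abundant gene held 12.8, 19.2, 24.3 and 30.5% of counts. These 4 libraries were kept, and NP values of 22 weeks below carry this limit. The library with the smallest total, 4722396 counts, was that of NP mouse 3 at 18 weeks. Macrophage markers were present in every library, with 11 genes summing to between 4135 and 11044 CPM (counts scaled to library size, here and throughout with edgeR's TMM factors). The 12 B cell markers summed to a median of 40.2 CPM over the 120 libraries. In bulk tissue, fewer cells of a type and less RNA per cell cannot be told apart.

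Levels compared between genes were set per exonic kilobase. Exonic bases were those of all annotated transcripts of a gene together, for example 6868 in *Tnfsf13b* and 2836 in *Tnfrsf13b*. These values therefore depend in part on the annotation. *Tnfsf12* had the highest median level over the 120 libraries (56.5 CPM per kb), followed by *Tnfsf13* (21.0), *Tnfsfm13* (12.1), *Tnfrsf12a* (9.64), *Tnfrsf13b* (3.90) and *Tnfsf13b* (1.00). *Tnfrsf17* (0.208) and *Tnfrsf13c* (0.0487) were near the detection limit. The ranges of neighbors in this order overlapped. Of the receptors for APRIL or BAFF, TACI alone had a median count above 6, at 348 counts.

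The best supported change of the axis was in APRIL. *Tnfsf13* was low at 6 weeks of age in every group and higher later, in NOR as well as NOD mice. At 6 weeks, CPM in the 4 NOR libraries was 8.88, 9.25, 9.65 and 15.4. In the 4 NP libraries of batch 1, CPM was 14.2, 17.5, 18.5 and 20.02, and in the 5 P libraries of batch 1 it was 11.4, 14.7, 17.0, 17.3 and 21.8. The 2 NOD groups overlapped fully at this age. In batch 2, the 7 NP libraries ran from 13.0 to 22.7 with a median of 13.8, and the 5 P libraries were at 15.2, 15.9, 16.0, 21.3 and 21.7. The 6-week values of NOD mice in both batches overlapped.

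In NP mice of batch 1, *Tnfsf13* was 34.7 ± 4.13 CPM (SD, n = 4) at 10 weeks, 47.9 ± 5.55 (n = 4) at 14 weeks, 57.8 ± 5.26 (n = 4) at 18 weeks and 56.2 ± 7.68 (n = 4) at 22 weeks. The lowest of these 16 libraries, at 28.9, was above the highest 6-week library of the batch. In batch 2, the 6 NP libraries of 14 weeks ranged from 29.8 to 43.2 with a median of 35.3, again clear of the 6-week libraries. In P mice of batch 1, *Tnfsf13* was 55.99 ± 10.2 CPM (n = 5) at 5 weeks before onset, 60.3 ± 9.04 (n = 5) at 3 weeks, 49.2 ± 8.85 (n = 5) at 1 week and 48.5 ± 7.74 (n = 5) at onset. In P mice of batch 2, it was 29.0 ± 1.88 (n = 8) at 7 weeks before onset, when all 8 libraries fell between 26.5 and 31.5, then 32.4 ± 2.77, 39.6 ± 4.42, 37.3 ± 4.00 and 42.3 ± 11.0 (n = 5 each). The late P libraries of batch 1 exceeded those of batch 2 without overlap at 5 and 3 weeks before onset. NOR mice reached 17.4 ± 1.76 CPM (n = 5) at 10 weeks, 28.1 ± 5.25 (n = 5) at 14 weeks and 30.2 ± 5.45 (n = 5) at 22 weeks. The 4 NOR libraries of 18 weeks were at 28.7, 32.2, 38.5 and, in the library rich in ribosomal RNA, 3.03 CPM.

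**Figure D1:**
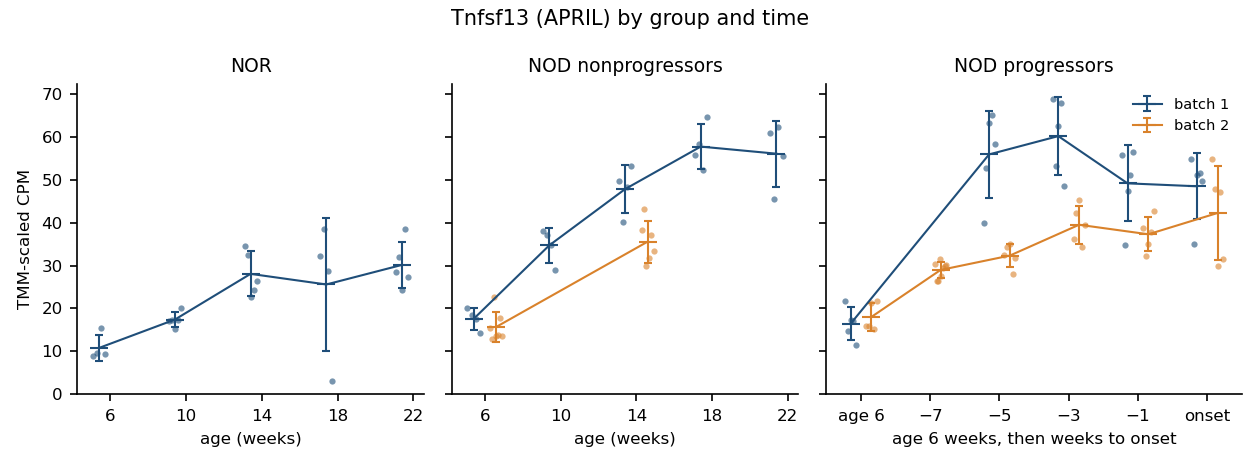
*Tnfsf13* in TMM-scaled CPM (linear axis from 0) by age, or by weeks to onset in progressors. Points are libraries, and lines join means ± SD within batch 1 (blue) and batch 2 (orange). Progressors have no batch 1 library from 7 weeks before onset. No 6-week library exceeds 22.7 CPM, later means are higher in every group, and NOR means lie below NP means at each age.

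Set against the 6-week biopsy of the same mouse in the same batch, *Tnfsf13* was higher in 44 of 44 later P biopsies, in 22 of 22 later NP biopsies and in 14 of 15 later NOR biopsies. The exception was the library rich in ribosomal RNA. By mouse, every later biopsy was higher in 10 of 10 P, 10 of 10 NP and 3 of 4 NOR mice. The median ratio to the mouse's own 6-week level was 1.53 (n = 4 mice) at 7 weeks before onset and 2.99 (n = 10) at onset in P mice, 2.00 (n = 4) at 10 weeks and 3.31 (n = 4) at 22 weeks in NP mice, and 1.86 (n = 4) at 10 weeks and 3.09 (n = 4) at 22 weeks in NOR mice.

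The change was tested over all genes by quasi-likelihood in edgeR, and p-values were adjusted by Benjamini-Hochberg. In P mice, the mean of 5 weeks before onset to onset exceeded 6 weeks by 1.36 ± 0.107 (SE) in log2 units, with an adjusted p of 2.16e-13. This was the smallest p of the 21279 genes tested in that fit. Within batch 1 the difference was 1.70 ± 0.149, and within batch 2 it was 1.06 ± 0.107. In NP mice, 10 to 22 weeks exceeded 6 weeks by 1.33 ± 0.0972 (adjusted p = 4.02e-10), again the smallest p of the 21138 genes tested. In NOR mice the estimate was 1.23 ± 0.253, which did not pass (adjusted p = 0.0794). Without the library rich in ribosomal RNA it was 1.29 ± 0.149 and passed (adjusted p = 0.000803), as it did in DESeq2 with all libraries (adjusted p = 3.27e-05). At 7 weeks before onset, the *Tnfsf13* estimate against 6 weeks was 0.91 ± 0.134 (adjusted p = 2.43e-05). It rests on 1 batch term for all times, and these libraries were all in batch 2. In P mice the ratio of batch 2 to batch 1 was 1.10 at 6 weeks but 0.578 at 5 weeks before onset. Within batch 2 the means were 29.0 CPM at 7 weeks before onset and 18.0 CPM at 6 weeks, a smaller rise than the estimate.

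Because many genes changed with age, the members were read against the background. In P mice from 5 weeks before onset, 4 of 8 members passed and all were higher, where 39.5% of all genes tested passed. In NP mice, 3 of 8 members passed and were higher, where 24.1% of genes passed. At 7 weeks before onset, 3 of 8 members passed and were higher, where 12.5% of genes passed, and with the mouse as a block 1 of 8 passed. In NOR mice, 0 of 6 members tested passed with edgeR and 1 with DESeq2, where 7 genes in all, or 0.0357%, passed. DESeq2 passed 46 genes in all. In edgeR, 2 of those 6 members had an unadjusted p under 0.05, as did 6.83% of genes.

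**Figure D2:**
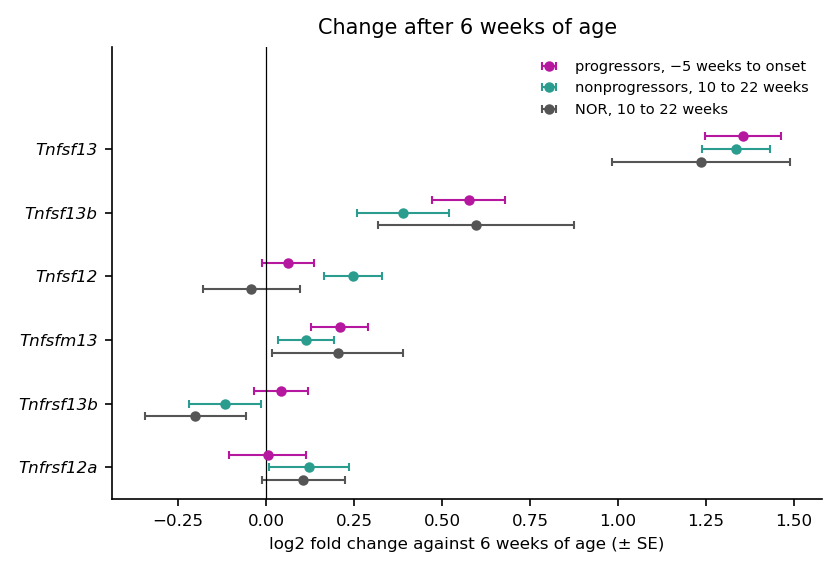
Log2 fold change of 6 members against 6 weeks of age (edgeR estimate, bars ± SE) in progressors (5 weeks before onset to onset), nonprogressors and NOR mice (10 to 22 weeks each). *Tnfsf13* lies between 1.23 and 1.36 in the 3 groups and *Tnfsf13b* between 0.39 and 0.60, and the other genes lie lower.

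Other cell type genes moved over the same interval, in which 39.5% of all genes passed in P mice and 24.1% in NP mice. Of 7 fibroblast markers, 7 fell in P and 6 in NP mice, and their summed level ran from 39279 to 83455 CPM in the 10 P libraries of 6 weeks and from 5984 to 43376 CPM in the 40 from 5 weeks before onset on. Of 8 interferon-stimulated genes, 7 fell in P and 8 in NP mice, with a median sum of 171.5 CPM in P mice at 6 weeks and 78.1 CPM later. Plasma cell genes rose, 9 of 13 in P and 7 of 13 in NP mice. Macrophage markers, by contrast, gave 2 higher and 1 lower of 11 in P and 1 higher and 1 lower in NP mice, and their sums at 6 weeks (4855 to 8927 CPM in P, 4565 to 8582 in NP) overlapped those at later times (4137 to 10448 and 4135 to 7952). Of 8 dendritic cell markers, 1 rose in P mice, *Itgax* (0.80 ± 0.113), which macrophages also express, and the sum of the list had a median of 564.3 CPM at 6 weeks and 974.9 later. In NP mice 1 rose and 2 fell, with median sums of 573.6 and 927.5 CPM. The median log2 fold change of this list was nonetheless -0.18 in P and -0.31 in NP mice, against 0.01 and -0.03 over all genes. In P mice, 5 of 8 T cell and 4 of 4 hair follicle markers rose and 3 of 5 endothelial markers fell. In NOR mice, where 7 genes passed in all, no gene of these lists did, and fibroblast sums (36766 to 45242 CPM at 6 weeks, 21414 to 85275 later) overlapped. The part of these cells in the *Tnfsf13* values was not tested.

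BAFF changed less. *Tnfsf13b* was at 3.56, 4.63, 4.69, 4.701 and 6.08 CPM in the 5 P libraries of 6 weeks in batch 1 and at 4.05, 5.03, 5.05, 5.59 and 6.89 in the 5 of batch 2. At onset, the libraries were at 5.75, 7.31, 7.73, 8.16 and 8.51 in batch 1 and 5.35, 7.89, 7.99, 8.09 and 8.44 in batch 2. Most late libraries were above the 6-week ones, with some overlap. *Tnfsf13b* rose in P mice by 0.58 ± 0.103 in log2 units (adjusted p = 1.17e-05), and within batches the difference was 0.59 ± 0.171 and 0.57 ± 0.124. It was higher than the mouse's own 6-week level in 40 of 44 later P biopsies, 18 of 22 NP biopsies and 12 of 15 NOR biopsies. By mouse, every later biopsy was higher in 6 of 10 P, 7 of 10 NP and 2 of 4 NOR mice. In NP mice the estimate was 0.39 ± 0.131 (adjusted p = 0.0300), a call that was lost with the mouse as a block (adjusted p = 0.0510) and without NP mouse 2, 4 or 8 (adjusted p 0.0568 to 0.216), and that did not pass within either batch (adjusted p = 0.0952 and 0.147). At 7 weeks before onset it was 0.46 ± 0.138 (adjusted p = 0.0198), which was lost with the mouse as a block (adjusted p = 0.271) and without P mouse 3 or 10 (adjusted p 0.0633 to 0.0704). The NOR estimate was 0.60 ± 0.277 (adjusted p = 0.717), and 0.48 ± 0.208 without the library rich in ribosomal RNA (adjusted p = 0.429).

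**Figure D3:**
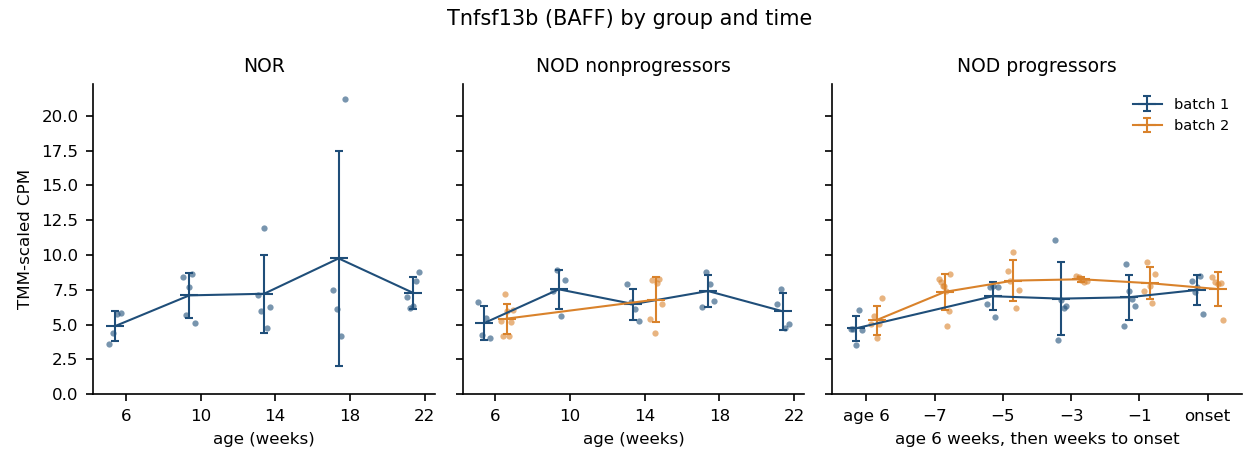
*Tnfsf13b* in TMM-scaled CPM (linear axis from 0), plotted by library with mean ± SD as for *Tnfsf13*, batch 1 in blue and batch 2 in orange. The 6-week means, between 4.73 and 5.42 CPM, are the lowest of each group, and the NOR library at 21.2 CPM is the one rich in ribosomal RNA, where it stands for 21 counts.

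TWEAK and its receptor moved less. *Tnfsf12* was 99.6 ± 16.7 CPM (n = 5) at 6 weeks and 85.2 ± 14.9 (n = 5) at onset in P mice of batch 1, with overlapping values, and its difference in P mice did not pass (0.06 ± 0.0736, adjusted p = 0.522). In NP mice *Tnfsf12* rose by 0.25 ± 0.0824 (adjusted p = 0.0288), a call lost without NP mouse 2, 4 or 10 (adjusted p 0.0502 to 0.0903) and within batch 1 (adjusted p = 0.224). *Tnfrsf12a* did not pass in P mice in the pooled fit (0.00 ± 0.109, adjusted p = 0.981), but the batches differed in direction, with 0.34 ± 0.106 within batch 1 (adjusted p = 0.0203) and -0.29 ± 0.149 within batch 2 (adjusted p = 0.135). *Tnfsfm13* passed in P mice with a small difference (0.21 ± 0.0810, adjusted p = 0.0341) that passed in neither batch alone and was lost on leaving out any of 7 of the 10 mice (P mouse 1, 2, 3, 5, 6, 9 or 10, adjusted p 0.0548 to 0.141). Counted as 1 feature, the sum of *Tnfsf12*, *Tnfsf13* and *Tnfsfm13* rose by 0.36 ± 0.0677 in P mice (adjusted p = 2.85e-05) and by 0.43 ± 0.0707 in NP mice (adjusted p = 0.000102), and in NOR mice the estimate was 0.18 ± 0.119 (adjusted p = 0.840). Relative to the mouse's own 6-week level, the sum was higher in 39 of 44 later P biopsies, 22 of 22 NP biopsies and 10 of 15 NOR biopsies. By mouse, every later biopsy was higher in 8 of 10 P, 10 of 10 NP and 2 of 4 NOR mice.

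Of the receptors, TACI moved little. *Tnfrsf13b* was 10.7 ± 3.08 CPM (n = 5) at 6 weeks and 10.4 ± 0.899 (n = 5) at onset in P mice of batch 1, and 11.4 ± 0.986 (n = 4) and 10.2 ± 1.11 (n = 5) at 6 and 22 weeks in NOR mice. It passed in no comparison over time. The log2 estimates were 0.04 ± 0.0766 in P, -0.12 ± 0.102 in NP and -0.20 ± 0.144 in NOR mice (adjusted p 0.688, 0.437 and 0.856).

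BAFF receptor and BCMA were barely sampled. *Tnfrsf13c* had 0 counts in 17 libraries and a median of 3 counts, and *Tnfrsf17* had 0 in 12 libraries and a median of 6. A count of 0 allows up to 3 counts, which corresponds to 0.0856 CPM in the median library. In the 10 P libraries of 6 weeks, *Tnfrsf13c* had 0 to 6 counts, and the highest late libraries had 33 counts (3 weeks before onset, batch 1) and 43 counts (onset, batch 2). The difference in P mice passed narrowly (1.36 ± 0.556, adjusted p = 0.0462) and was lost without P mouse 2, 5, 6 or 9 (adjusted p 0.0588 to 0.0861). Without P mouse 1, 7 or 8 the gene did not reach the count filter and was not tested, so that the call stood in 3 of 10 runs. The *Tnfrsf17* estimate was 0.82 ± 0.405 (adjusted p = 0.101), which passed without P mouse 8 alone (adjusted p = 0.0463). For *Tnfrsf17*, the 8 libraries of 7 weeks before onset had 15 to 24 counts each. The 5 P libraries of 6 weeks in the same batch had 1, 5, 6, 8 and 11 and did not overlap them. The 7 NP libraries of 6 weeks in that batch had 4 to 17 counts and did overlap them. How many of all genes separated these P groups was not counted. At 5 weeks before onset, the 5 libraries of batch 2 had 12 to 27 counts. The difference at 7 weeks passed (1.62 ± 0.503, adjusted p = 0.0245) but not with the mouse as a block (adjusted p = 0.156) or without P mouse 4, 6, 7 or 9 (adjusted p 0.0534 to 0.0694). At onset *Tnfrsf17* was back to 0 to 9 counts in batch 2. Against 5 weeks before onset the estimate was -1.16 ± 0.473 (adjusted p = 0.170), and within batch 2 it was -1.93 and passed (adjusted p = 0.0285).

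B cell genes were higher in later libraries of P mice too. In P mice, 7 of 12 B cell markers rose, or 58.3% where 39.5% of all genes passed. In NP mice 3 of 12 rose, or 25.0%, near the 24.1% of all genes that passed, and in NOR mice 0 of 11 passed. In P mice the sum of the list had a median of 25.8 CPM at 6 weeks (range 19.1 to 35.1) and 40.4 CPM later (range 21.9 to 71.9). Plasma cell genes in P mice summed to a median of 167.9 CPM at 6 weeks and 287.4 later. The 2 NP libraries from 108 days after implantation stood apart, with 80 and 180 counts of *Tnfrsf13c* and B cell sums of 120.6 and 123.7 CPM, above all 118 other libraries, whose highest sum was 76.2.

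Progressors and nonprogressors were then compared directly. At 6 weeks of age, 0 of 6 members tested passed, as did 0 of 19082 genes (0%) with edgeR and with DESeq2, while 985 genes had an unadjusted p under 0.05 in edgeR. No member was among those 985. The P minus NP estimate for *Tnfsf13* was 0.07 ± 0.116, and for *Tnfsf13b* it was -0.07 ± 0.122. The later rise did not differ detectably between the groups either, with a difference of 0.05 ± 0.136 for *Tnfsf13* (adjusted p = 1.00) and 0.15 ± 0.152 for *Tnfsf13b* (adjusted p = 0.935), and 0 of 8 members and 0 of 22722 genes (0%) passed in edgeR (1531 genes, and 0 members, at an unadjusted p under 0.05), against 11 genes and 0 members in DESeq2. The ages of the later times differ between these groups. Nor did the age change of NP mice differ detectably from that of NOR mice (0.24 ± 0.268 for *Tnfsf13*, adjusted p = 0.932, and 0.16 ± 0.177 without the library rich in ribosomal RNA, adjusted p = 0.863), where 0 of 8 members and 0 of 20647 genes (0%) passed in edgeR (1250 genes, and 0 members, at an unadjusted p under 0.05), and 9 genes and 0 members in DESeq2. Between 5 weeks before onset and onset, 0 of 8 members passed with either tool, where 1.77% of genes passed in edgeR, and 2 members (*Tnfsfm13* and *Tnfrsf17*) had an unadjusted p under 0.05, as did 18.3% of genes. The *Tnfsf13* estimate over these last weeks was 0.05 ± 0.123 (adjusted p = 0.864), with opposite signs within batch 1 (-0.21 ± 0.166, adjusted p = 0.552) and batch 2 (0.37 ± 0.126, adjusted p = 0.0570), neither of which passed.

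The strains differed at the APRIL locus. This contrast is given as a description, without a test. Counts of batch 1 were summed per mouse. *Tnfsf13* in the 5 NOR mice was 24.5, 23.5, 24.2, 24.2 and 20.9 CPM, in the 4 NP mice 43.7, 38.7, 37.2 and 38.2, and in the 5 P mice 47.1, 37.8, 49.7, 53.3 and 48.5. The lowest NOD mouse was above the highest NOR mouse. *Tnfsfm13* was 19.6, 20.5, 20.6, 20.6 and 21.4 CPM in NOR mice, 52.4, 49.98, 52.9 and 45.1 in NP mice and 54.0, 46.2, 52.0, 53.6 and 52.3 in P mice. Its NOD minus NOR estimate was 1.30 ± 0.0487 on the log2 scale, the largest and tightest of the 8, and that of *Tnfsf13* was 0.89 ± 0.0933. *Tnfsf12*, between whose exons and those of *Tnfsf13* the fusion runs, did not share this difference, with 98.2 ± 8.96 CPM (n = 9) in NOD and 95.4 ± 5.69 (n = 5) in NOR mice.

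**Figure D4:**
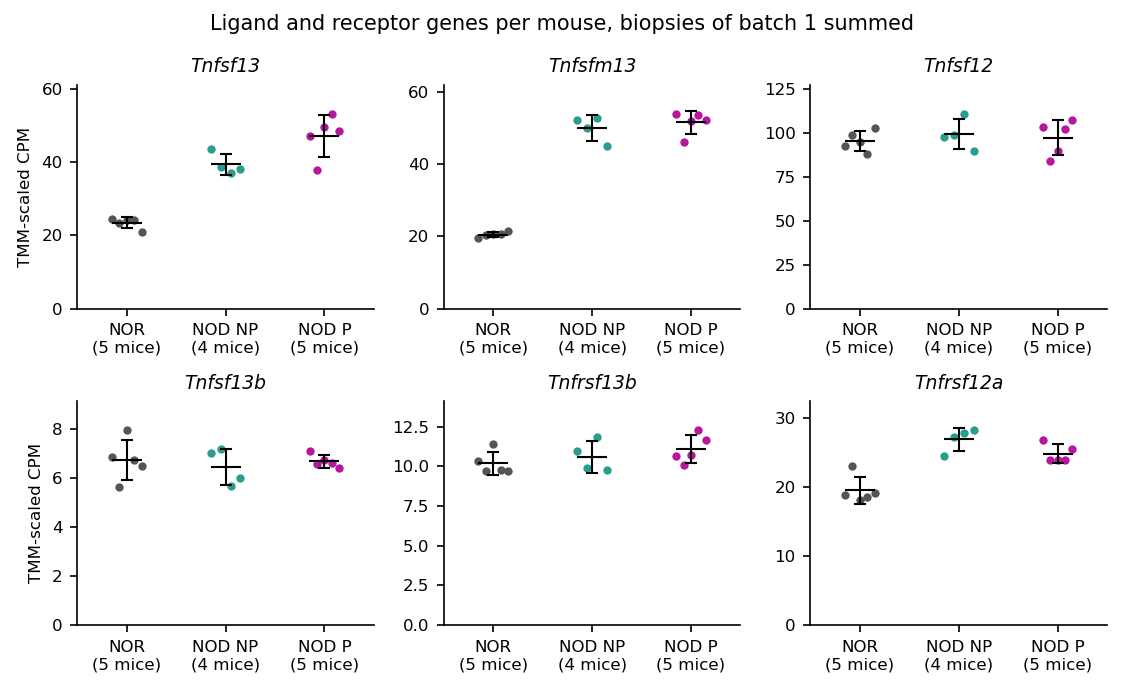
TMM-scaled CPM (linear axes from 0) of 6 genes, each point 1 mouse with its biopsies of batch 1 summed, and bars mean ± SD. *Tnfsf13*, *Tnfsfm13* and *Tnfrsf12a* show all NOD mice above all NOR mice, and in the other 3 genes the strains overlap. The share of all genes without overlap was not counted.

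*Tnfrsf12a* was 25.7 ± 1.78 CPM in NOD and 19.5 ± 1.98 in NOR mice, also without overlap between these sums. The other members overlapped between strains. *Tnfsf13b* was 6.57 ± 0.501 CPM in NOD and 6.72 ± 0.824 in NOR mice, *Tnfrsf13b* was 10.9 ± 0.906 and 10.2 ± 0.746, and *Tnfrsf13c* and *Tnfrsf17* were at 0.541 CPM or less in every mouse. The locus sum was 192.9 ± 14.8 CPM in NOD and 139.4 ± 4.92 in NOR mice, a log2 difference of 0.46 ± 0.0553. Over all 23387 genes, 8.98% passed in this contrast, 23.4% had an unadjusted p under 0.05 in edgeR, and nothing is read from it here. How many of all genes separated the strains without overlap was not counted. Whether such separation is unusual therefore cannot be said.

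By age, NP mice exceeded NOR mice 1.63-fold in *Tnfsf13* at 6 weeks, where the groups overlapped in 1 NOR library of 15.4 CPM, 2.00-fold at 10 weeks, 1.70-fold at 14 weeks, 2.26-fold at 18 weeks and 1.86-fold at 22 weeks. The 18-week ratio was 1.75 without the library rich in ribosomal RNA. For *Tnfsfm13* the ratios were 2.33, 2.49, 2.31, 1.78 (2.49 without that library) and 2.70. For *Tnfrsf12a* they were 1.21, 1.66, 1.64, 1.33 (1.27 without it) and 1.02, and the groups overlapped at 6, 18 and 22 weeks. Leaving out the library rich in ribosomal RNA, where *Tnfsfm13* had 52 counts and 52.5 CPM, the 22 NOR libraries ranged from 13.6 to 25.7 CPM and the 45 NOD libraries of batch 1 linked to a mouse from 33.6 to 68.0 CPM, so these libraries did not overlap at any age.

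The nearest genes on either side of the locus were also followed. Of the 8, 6 were tested, and *Senp3* (0.52 ± 0.0328), *Eif4a1* (0.39 ± 0.0468), *Polr2a* (0.37 ± 0.0361) and *Zbtb4* (0.37 ± 0.0505) were higher in NOD mice on the log2 scale, whereas *Tnfsf13os* (-0.22 ± 0.0933) and *Slc35g3* (-0.92 ± 0.201) were lower.

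Part of the locus also differed between sequencing batches. The batches held different mice, apart from P mice of batch 1 whose biopsies of 7 weeks before onset were sequenced in batch 2. Batch and animal therefore differed together in the comparisons below. The 8 libraries of 7 weeks before onset, which include those mice, ranged from 17.7 to 29.7 CPM of *Tnfsfm13*, and the 25 P libraries of batch 1 from 33.6 to 68.0. In NP mice at 6 weeks, *Tnfsfm13* was 44.0 ± 6.32 CPM (n = 4) in batch 1 and 21.9 ± 3.14 (n = 7) in batch 2, a ratio of 0.496, and the values did not overlap. The ratio of batch 2 to batch 1 lay between 0.375 and 0.538 in all 7 NOD groups present in both, without overlap in any. In all, the 46 NOD libraries of batch 2 ranged from 14.2 to 31.4 CPM and overlapped the NOR libraries of batch 1, which ranged from 13.6 to 25.7 CPM without the library rich in ribosomal RNA. *Tnfsf12* was lower in batch 2 as well (64.1 ± 9.83 CPM, n = 46, against 97.6 ± 14.4, n = 51), and so was *Tnfrsf12a* (13.4 ± 2.52 against 25.0 ± 5.18). *Tnfsf13b*, in contrast, had ratios between 1.01 and 1.20. With no NOR library in batch 2, the strain difference could be measured in batch 1 alone.

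**Figure D5:**
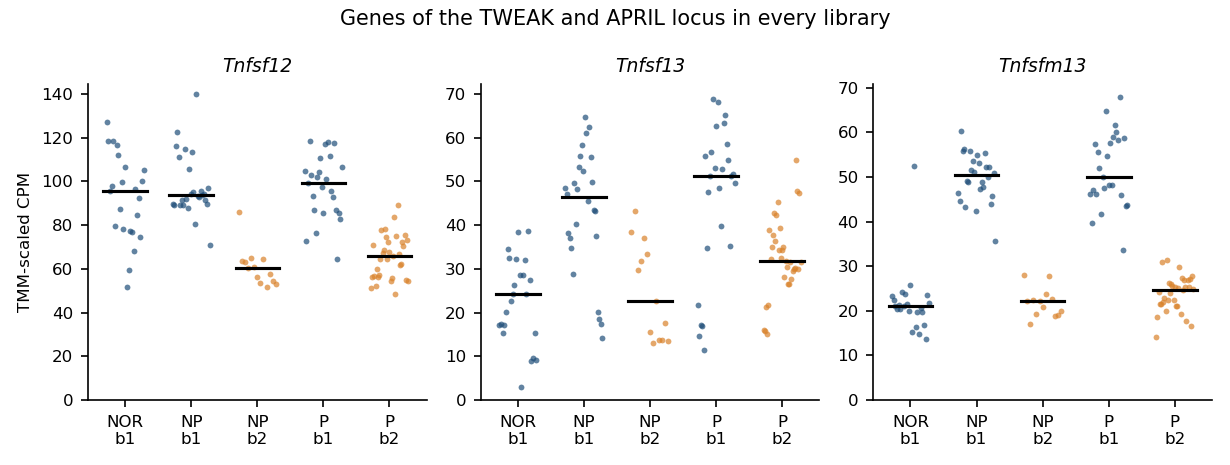
TMM-scaled CPM (linear axes from 0) of the 3 overlapping genes in each library, by group and batch (b1 in blue, b2 in orange), with a bar at the median. *Tnfsfm13* in NOD libraries has a median of 49.9 CPM in batch 1 and 22.8 in batch 2, and the NOR libraries of batch 1 have a median of 21.0.

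Genes of BAFF and APRIL signaling and ligand processing passed about as often as genes in general. The list, like the cell type lists, was chosen with earlier results of these data known. Of 26 genes tested in P mice, 8 rose and 2 fell, or 38.5% where 39.5% of all genes passed, with a median of 0.12 against 0.01 over all genes. Among the 5 with the smallest p, *Ikbkb*, a kinase of the canonical NF-kB pathway, rose by 0.24 ± 0.0313 (adjusted p = 2.93e-08), *Rel*, an NF-kB subunit, by 0.36 ± 0.0670 (adjusted p = 2.24e-05) and *Bcl2*, which protects cells from death, by 0.47 ± 0.0855 (adjusted p = 1.45e-05). *Nfkb2*, the substrate of the noncanonical pathway downstream of BAFF receptor, fell by 0.27 (log2, adjusted p = 0.00406). *Sdc2*, a heparan sulfate proteoglycan of the family that binds APRIL, fell by 1.21 (adjusted p = 1.60e-07). In NP mice, 5 rose and 1 fell, or 23.1% where 24.1% of all genes passed, with *Ikbkb* (0.20 ± 0.0450) and *Sdc2* (-0.76 ± 0.180) again first. At 7 weeks before onset *Ikbkb* alone passed, and between 5 weeks before onset and onset and in NOR mice 0 of 26 passed in edgeR.

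Other ligands of the family also passed near the background share, with 5 of 13 in P mice (38.5%) and 4 of 13 in NP mice (30.8%). In P mice, *Tnf* (0.55 ± 0.142, adjusted p = 0.00153) and *Ltb* (0.95 ± 0.275, adjusted p = 0.00467) rose, and *Eda* (-0.99 ± 0.145), *Tnfsf11* (-1.22 ± 0.286) and *Tnfsf18* (-1.03 ± 0.349) fell. The median of the list was -0.21. In NP mice *Tnf* rose (0.53 ± 0.196, adjusted p = 0.0474) and the same 3 ligand genes fell.

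Genes that varied most like each member were found from deviations of log2 CPM from the mean of group and batch over the 120 libraries, as a description. *Tnfsf13* was most like *Galnt11* (Pearson r = 0.873), *Cnr2*, the cannabinoid receptor of immune cells (0.856), and *Pctp* (0.855). Part of this came from 1 library, since without the library rich in ribosomal RNA the values were 0.747, 0.708 and 0.708. *Tnfsf12* was most like *Retreg2* (0.872), *Cic* (0.811) and *Tesk1* (0.801), and *Tnfrsf12a* most like *Emp3* (0.751), *Cyth2* (0.713) and *Prelid1* (0.703). Without that library the first of each was at 0.870 and 0.750. *Tnfrsf13b* was most like *Arl6ip1* (0.746), *Map4k1* (0.746) and *Tifab* (0.741), *Tnfsf13b* most like *Pcbp3* (0.626), *Agfg1* (0.608) and *Ms4a8a* (0.608), and *Tnfsfm13* most like *Gm36684* (0.724), *Usp12* (0.713) and *Sumf1* (0.700), all lower without it. Without it, *Agfg1* went from rank 2 to 13, *Gm36684* from 1 to 39 and *Usp12* from 2 to 76, so that the choice of these genes rests on that library. Within the axis, *Tnfsf13* and *Tnfrsf13b* had r = 0.648 with and 0.469 without that library, and *Tnfsf12* and *Tnfsfm13* 0.477 and 0.597. Libraries share depth and RNA quality, and so no p is given.

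The promoters of *Tnfsf13* and *Tnfsf13b* are shown because both hold an AP-1 motif. RefSeq windows of 300 bases (250 before and 50 after the start, GRCm38.p6) were searched on both strands for 4 motifs, AP-1, ETS, TATA and an NF-kB decamer. For AP-1, TGAGTCA, in capitals below, was found at -133 from the *Tnfsf13* start (chr11:69685505-69685804, minus strand) and at -127 from a *Tnfsf13b* start (chr8:10006383-10006682, plus strand). In the window of another *Tnfsf13b* start (chr8:10006217-10006516), not shown, the same site lies 39 bases after the start and so not upstream of it.
Tnfsf13: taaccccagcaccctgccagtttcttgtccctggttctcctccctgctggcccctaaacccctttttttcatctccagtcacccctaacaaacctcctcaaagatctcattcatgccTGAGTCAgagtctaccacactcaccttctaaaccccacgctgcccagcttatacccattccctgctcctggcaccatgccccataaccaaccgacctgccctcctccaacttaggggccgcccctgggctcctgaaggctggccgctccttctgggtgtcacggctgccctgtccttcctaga
Tnfsf13b: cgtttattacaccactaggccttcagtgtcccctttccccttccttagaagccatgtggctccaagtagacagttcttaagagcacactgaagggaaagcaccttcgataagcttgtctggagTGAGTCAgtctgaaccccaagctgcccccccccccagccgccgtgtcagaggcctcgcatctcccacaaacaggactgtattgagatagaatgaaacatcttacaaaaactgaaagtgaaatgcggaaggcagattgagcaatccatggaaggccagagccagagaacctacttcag
The AP-1 motif was present in 5.20% of 32851 promoters. No other member had it. The ETS motif (AGGAAGT) was found in *Tnfrsf13b* and in 9.35% of all promoters. The TATA motif, spelled TATAAA in the search, was found in *Tnfrsf17* and in 13.6% of all promoters. The NF-kB decamer was found in no member and in 0.155% of all promoters. *Tnfsf12* was not matched. A match describes these letters only, and no factor was measured.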

How the data were processed

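Total RNA of IN biopsies was depleted of ribosomal RNA and sequenced. According to the submitters' processing notes, cutadapt, FastQC, STAR, RSEM and MultiQC were used with GRCm38; versions, annotation release and strand setting are not given in the sources used here. The authors deposited expected counts per gene from RSEM as 1 table per batch, which hold whole numbers. Each of the 120 columns was matched to a sample by its label, and 0 columns were left unused. The 6 NP libraries labelled by days since implantation entered no comparison, because the labels do not link them to a mouse.

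The 8 members, the gene lists and the tests were chosen with earlier results of these data known. The 55491 genes present in both tables were scaled with TMM (edgeR 4.0.16, R 4.3.3), and CPM were computed over all 120 libraries. Comparisons used edgeR's quasi-likelihood test after filterByExpr with batch as a term, Benjamini-Hochberg adjustment over all genes tested and a threshold of 0.05. The fits were tested on simulated counts with 200 changed genes. For the strain description, batch 1 libraries were summed per mouse. Alternatives were DESeq2 1.42.0, its size factors, no filter, no batch term, each batch alone, the mouse as a block, the locus as 1 feature and each mouse left out. Mouse numbers name the same animal over time, so that numbers pair biopsies within a group. Between biopsies of the same mouse, the mean correlation of deviations over 2000 genes was -0.01 in P, 0.01 in NP and 0.02 in NOR mice. Between biopsies of different mice it was 0.004, 0.0009 and -0.003. The main fits over time had no mouse term, so repeated biopsies of a mouse counted as separate libraries. Chi-square over degrees of freedom was at least 12.0 in each of 239 replicate pairs, so that none was counted as a duplicate.

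All members were named, as were at most 5 genes per list and comparison with the smallest p among those that passed, the 4 nearest genes on either side of the locus, and the 3 genes most like each member with a mean of at least 1 CPM (Pearson r of log2 values with a pseudocount of 0.5 CPM). Overlaps and junctions were taken from GENCODE for GRCm38. The floor given for a count of 0 covers counting error only. SD is the spread between libraries or mice, and SE comes from the edgeR fit, which includes variation between libraries. The result of 1 marker gene is not reported here.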

Additional observations from a re-analysis of the deposited data

Results flagged for a closer look

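In groups of 4 to 10 libraries of 1 batch, 19 of 184 member values tested (10.3%) had 1 library far from the others by Dixon's criterion, which flags about 1 in 20 groups by chance. For *Tnfsf13*, NOR mouse 4 at 6 weeks was at 15.4 CPM, where the others were at 8.88 to 9.65, and P mouse 2 at onset in batch 1 was at 35.1 CPM, where the others were at 49.8 to 55.0. For *Tnfsf13b*, P mouse 9 at onset in batch 2 was at 5.35 CPM (others 7.89 to 8.44). For *Tnfsfm13*, P mouse 7 at onset in batch 2 was at 16.5 CPM (others 24.8 to 27.7).

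For *Tnfsf12*, NP mouse 3 at 14 weeks in batch 1 was at 115.1 CPM (others 89.3 to 92.0), NP mouse 10 at 14 weeks in batch 2 at 86.0 (others 60.4 to 64.8) and P mouse 7 at 6 weeks in batch 2 at 70.8 (others 51.4 to 56.8). For *Tnfrsf13b*, NOR mouse 3 at 10 weeks was at 11.5 CPM (others 8.02 to 8.63), NP mouse 3 at 14 weeks in batch 1 at 14.6 (others 9.56 to 10.1), NP mouse 5 at 14 weeks in batch 2 at 14.0 (others 8.25 to 9.84) and P mouse 2 at 1 week before onset in batch 1 at 9.24 (others 10.8 to 11.3). For *Tnfrsf12a*, NP mouse 9 at 6 weeks in batch 2 was at 18.6 CPM (others 10.6 to 14.0).

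The other flags were in the sparse receptors. *Tnfrsf13c* was at 0.275 CPM in NOR mouse 3 at 14 weeks, 1.29 in NP mouse 2 at 18 weeks, 0.164 in NP mouse 8 at 6 weeks in batch 2, 0.151 in P mouse 10 at 6 weeks and 0.188 in P mouse 10 at 7 weeks before onset, each above the rest of its group. *Tnfrsf17* was at 0.0855 CPM in NP mouse 4 at 18 weeks, where the others were at 0, and at 0 in NP mouse 3 at 22 weeks, where the others were at 0.135 to 0.148.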

How the results depend on the processing

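The rise of *Tnfsf13* passed in P mice (1.27 to 1.44 without 1 mouse), at 7 weeks before onset (0.86 to 0.97) and in NP mice (1.29 to 1.37) under every alternative run. No member that passed in a pooled fit changed sign. *Tnfrsf12a* in P mice, which did not pass there, passed within batch 1 and had the opposite sign within batch 2, as given above. The strain difference moved in 6-week samples alone, to 0.65 for *Tnfsf13*, -0.0922 for *Tnfrsf13b* and 0.20 for *Tnfrsf12a*. The members that passed in P mice from 5 weeks before onset fell from 4 to 2 with no batch term, with no filter and within batch 2, and ranged from 2 to 4 without 1 mouse (2 without P mouse 1, 2, 5, 6 or 9). In NP mice the number was 6 with no batch term, 1 within batch 1 and 1 to 3 without 1 mouse (1 without NP mouse 2 or 4). In NOR mice it was 1 with DESeq2 and 1 without the library rich in ribosomal RNA, and between 5 weeks before onset and onset it was 1 within batch 2. With the mouse as a replicate block, 1 member passed at 7 weeks before onset, and beyond the calls given above no other call changed. P and NP mice at 6 weeks share only a number, and a block on that number left 0 members called. No paired analysis was possible because the strains share no mouse. The cause of these shifts was not tested.

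Over all genes, calls at 7 weeks before onset went from 2670 to 883 with the block, 4077 within batch 2 and 1475 without P mouse 6. Between 5 weeks before onset and onset they went from 377 to 839 with DESeq2, 14 with no batch term, 103 with no filter, 1 within batch 1 and 1973 within batch 2, and to between 10 and 1088 without 1 mouse. In NP mice they went from 5094 to 9173 with no batch term, 2712 within batch 1 and 2786 without NP mouse 1, and size factors moved the split from 2089 higher and 3005 lower to 2502 and 2531. In P mice 8403 became 5317 within batch 1. In NOR mice 7 became 46 with DESeq2, 12 with no filter, 2 with the block, 12 without the library rich in ribosomal RNA, and 0 to 54 without 1 mouse. In the strain contrast 2101 became 403 at 6 weeks and 1099 with P mice alone. Depth limits *Tnfrsf13c* and *Tnfrsf17*, with median counts of 3 and 6. The 18-week comparison of NP with NOR mice without the library rich in ribosomal RNA was chosen after seeing the data.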

Other observations

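The 6 NP libraries labelled by days since implantation were at 43.4 and 49.97 CPM of *Tnfsf13* at 31 days, 37.6 and 43.1 at 38 days and 47.2 and 48.4 at 108 days. All were above the NP libraries of 6 weeks of age. *Tnfsf13b* was at 7.89 and 8.31 CPM at 31 days, 5.16 and 7.20 at 38 days and 10.8 and 12.2 at 108 days.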
